A study of Mus musculus with 8 samples.

Results

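The 10 genes described here, *Arntl*, *Per1*, *Per2*, *Per3*, *Cry1*, *Ciart*, *Nr1d1*, *Nr1d2*, *Dbp* and *Tef*, are parts of the circadian clock or are driven by it. They were chosen by symbol for that role, with earlier results of these data known, out of 48795 genes with a value in each library. All 10 were among the 13040 genes that passed the filter on low counts. Polyadenylated RNA of peritoneal macrophages (pMacs), the resident macrophages washed from the peritoneal cavity, was sequenced from 8 mice, 4 of each genotype (WT and CD1d-KO), with the replicate numbers 1, 2, 3 and 5. The study used adult mice, matched for age and sex and kept on a light/dark cycle, with littermates as controls, and the cells had received no stimulus. CD1d presents lipid antigens to NKT cells, and CD1d-KO mice lack it in every cell and lack NKT cells as well. The study names a pair of CD1d-KO lines, a deletion spanning *Cd1d1* and *Cd1d2* and a floxed allele removed by PGK-Cre, and the labels do not give the line of these mice. The time of day at which the cells were collected is not given in the sources used here. A gene under clock control can differ between libraries collected at different times, so these genes were compared between the genotypes and between the replicate numbers.

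The clock is a loop of transcription that runs in most cells, macrophages among them, with a period of about a day. BMAL1, the protein of *Arntl*, pairs with CLOCK, binds E-boxes and activates the *Per*, *Cry*, *Ciart*, *Nr1d1*, *Nr1d2*, *Dbp* and *Tef* genes. The PER, CRY and CIART proteins then repress BMAL1-CLOCK, and the REV-ERB proteins of *Nr1d1* and *Nr1d2* repress *Arntl* through ROR elements. DBP and TEF are PAR bZIP factors that carry the rhythm to further genes through D-boxes. In mouse tissues *Arntl* peaks at about the opposite time of day to *Dbp*, *Tef*, *Per3* and *Nr1d1*.

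The promoters were searched for letters that match the sites of these proteins. RefSeq promoter windows on GRCm38.p6, from 250 bases before to 50 after a start site, were found for 9 of the 10 genes (12 windows, all but *Per2*). Windows were searched on both strands for the E-box CACGTG, its variant the E′-box CACGTT, the D-box (TTATGTAA, TTATGCAA or TTACGTAA), the ROR core (TAGGTCA or TGGGTCA) and the cAMP response element TGACGTCA. Of 32851 promoters of the same length, 7.15% held an E-box, 4.68% an E′-box, 1.78% a D-box, 6.45% a ROR core and 1.79% a cAMP response element. Among the 9 genes, 4 held an E-box, 2 an E′-box, 2 a D-box, 1 a ROR core and 0 a cAMP response element. Counted by window, as the percentages are, 5 of the 12 held an E-box and the other counts were the same. The windows of *Dbp* and *Nr1d2* held no match. The 30-base stretches below hold the D-boxes of *Per3*, the gene that differed most between replicate numbers, and some of the matches of other genes. Not shown are the E-box and E′-box of *Cry1*, the E-box of *Per1* and that of the further *Tef* window. Each reads 5′ to 3′ on the strand of its gene, with the motif in capitals.
Per3, D-box a: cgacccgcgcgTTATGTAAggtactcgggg
Per3, D-box b: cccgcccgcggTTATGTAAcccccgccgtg
Per1, D-box: agggcctggcaTTATGCAAcccgcctccca
Tef, E-box: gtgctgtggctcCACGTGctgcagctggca
Ciart, E-box a: tgcatctagagtCACGTGttgccggtaagc
Ciart, E-box b: cgcagggggaggCACGTGcagaaccgcacg
Ciart, E-box c: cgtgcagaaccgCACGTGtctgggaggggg
Nr1d1, E′-box on the other strand: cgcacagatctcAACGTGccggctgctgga
Arntl, ROR core: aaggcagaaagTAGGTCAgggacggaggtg

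The *Per3* stretches lie at chr4:151044852-151044881 and chr4:151044805-151044834 on the minus strand, with the D-boxes starting 205 and 158 bases before the start site. That of *Per1* lies at chr11:69098914-69098943 on the plus strand, 24 bases before the start, and that of *Tef* at chr15:81802534-81802563 on the plus strand, 127 bases before it. The 3 stretches of *Ciart* lie on the minus strand at chr3:95882327-95882356, chr3:95882269-95882298 and chr3:95882255-95882284, and b and c overlap. The E′-box of *Nr1d1* lies in chr11:98775388-98775417 on the minus strand, before the start site. The ROR core of *Arntl*, at chr7:113207530-113207559 on the plus strand, lies 30 bases past the start site, inside an annotated transcript. A match is a description of letters and not evidence of binding.

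Before the clock genes were compared, the labels were checked. *Cd1d1* (ENSMUSG00000028076) was at 4.40, 11.3, 6.20 and 9.11 CPM (read counts scaled to the same library total, scaled by the TMM method of edgeR) in WT replicates 1, 2, 3 and 5. It was at 0.0738, 0 and 0.0709 CPM in CD1d-KO replicates 2, 3 and 5, but at 3.91 CPM (80 counts) in the library labelled CD1d-KO replicate 1, close to its WT partner. Comparisons follow the labels and include that library unless stated. Total counts ran from 13698864 to 19059432, and both replicate 1 libraries were the deepest, at 19059432 and 18631659. The pMac label was matched by 5 macrophage markers that summed to between 18188 and 24563 CPM, while the Y-linked genes *Ddx3y* and *Eif2s3y* were at 0 in all 8 libraries. The other Y-linked genes examined reached at most 0.204 CPM. *Xist* was at 405 to 533 CPM in WT and 609 to 966 CPM in CD1d-KO (log2 fold change 0.73, adjusted p = 0.0575 from edgeR).

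TPM values, which allow for gene length, put the 10 genes in order of level. *Nr1d2* was highest, with a mean of 70.1 TPM over the 8 libraries (58.6 to 78.4), followed by *Tef* at 56.6, *Per1* at 46.8 and *Nr1d1* at 37.5 TPM. *Dbp* followed at 20.8 TPM, and *Arntl*, *Ciart*, *Per2* and *Cry1* lay between 9.17 and 6.34 TPM. *Per3* was lowest at 4.14 TPM (1.91 to 7.02). The ranges of all 9 pairs of neighbours in this order overlapped. Within every library, *Nr1d1* was above *Dbp*, *Dbp* above *Arntl* and *Cry1* above *Per3*. The other neighbours changed places between libraries, so their order is not fixed. The lowest *Nr1d1* value (31.1 TPM) stayed above the highest *Arntl* value (14.3 TPM).

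No clock gene passed the threshold between CD1d-KO and WT pMacs. With replicate number as a block, the edgeR quasi-likelihood fit called 0 of the 10 (adjusted p below 0.01 and a fold over 1.5), against 5 of all 13040 genes (0.0383%). At an unadjusted p under 0.05 there were 3 of the 10 (*Per3*, *Ciart* and *Dbp*), against 12.4% of all genes, and DESeq2 and limma also called 0. The median log2 fold change of the 10 was 0.19, against 0.00 over all genes, and the median of its absolute value was 0.27 against 0.12.

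**Figure D1:**
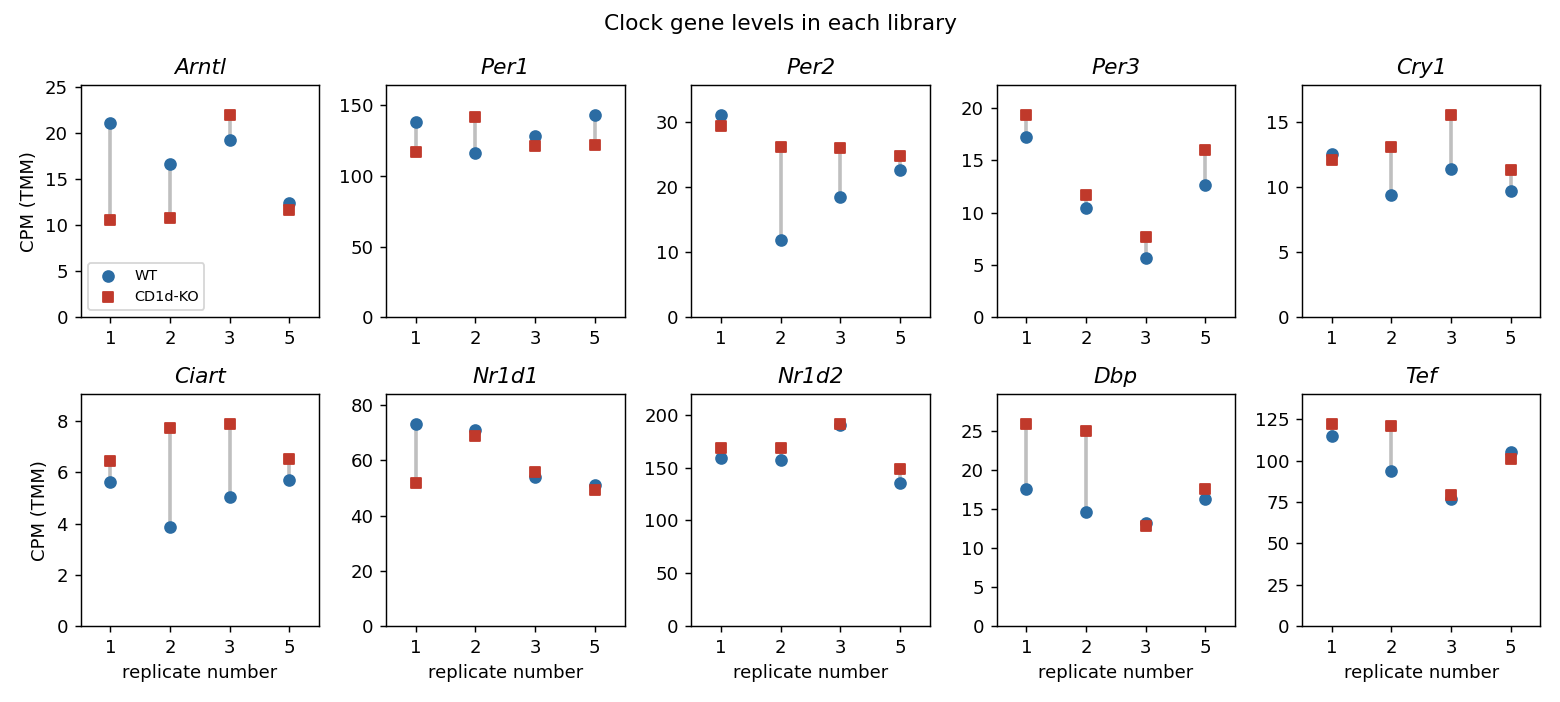
Level of each clock gene in CPM (TMM, vertical axis from 0) by replicate number, with WT as blue circles, CD1d-KO as red squares and a grey line joining the libraries of one number. *Per3* takes the same order of replicate numbers in both genotypes, and the CD1d-KO values of *Ciart* all lie above the WT values.

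*Arntl* (ENSMUSG00000055116), the activator, had 21.1, 16.6, 19.2 and 12.4 CPM in WT replicates 1, 2, 3 and 5 and 10.5, 10.8, 21.9 and 11.6 CPM in CD1d-KO. The groups overlapped, since CD1d-KO replicate 3 was the highest library of all while the other 3 CD1d-KO libraries were the lowest. The log2 fold change was -0.39 (standard error 0.19, 95% interval -0.83 to 0.06, adjusted p = 0.458 from edgeR). The pairs 2, 3 and 5 gave -0.61, 0.19 and -0.09, pair 1 fell furthest, and without the library labelled CD1d-KO replicate 1 the fit gave -0.16.

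*Ciart* (ENSMUSG00000038550), a repressor of BMAL1-CLOCK, had 5.61, 3.88, 5.04 and 5.71 CPM in WT and 6.46, 7.75, 7.88 and 6.52 CPM in CD1d-KO replicates 1, 2, 3 and 5. It was the only one of the 10 whose groups did not overlap, as was true of 1.96% of all genes. The log2 fold change was 0.50 (standard error 0.18, 95% interval 0.08 to 0.91, adjusted p = 0.311 from edgeR), and CD1d-KO was higher in 4 of 4 pairs. *Ciart* lies 8.88 Mb from *Cd1d1* on chromosome 3, and of the 209 other tested genes within 10 Mb of *Cd1d1* the groups did not overlap in 18 (8.61%), with CD1d-KO above in 9. Where a knockout line keeps DNA of another strain around its deletion, that DNA and the deletion cannot be told apart. An annotated antisense transcript, *C920021L13Rik*, covers all 3749 bases of *Ciart* and had 1.52 to 3.26 CPM, and the strand setting of the counting is not given in the sources used here. *Ciart* also rested on the fewest reads, from 56 to 132 counts a library, which alone gives a counting error of 8.70 to 13.4%.

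Among the period genes, *Per1* (ENSMUSG00000020893) had 138, 116, 128 and 143 CPM in WT and 117, 142, 121 and 122 CPM in CD1d-KO. Its groups overlapped, and the 95% interval of the fold change ran from 0.817 to 1.12. *Per2* (ENSMUSG00000055866) had 31.0, 11.8, 18.5 and 22.6 CPM in WT and 29.4, 26.2, 26.0 and 24.7 CPM in CD1d-KO. WT replicate 2 was the low library, the WT group spread further (21.0 ± 8.05 CPM, SD, n = 4) than CD1d-KO (26.6 ± 2.03 CPM, SD, n = 4), and the fitted log2 fold change of 0.40 had a standard error of 0.18 (adjusted p = 0.434 from edgeR).

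*Per3* (ENSMUSG00000028957) had 17.2, 10.4, 5.66 and 12.6 CPM in WT and 19.3, 11.7, 7.66 and 16.0 CPM in CD1d-KO replicates 1, 2, 3 and 5. CD1d-KO was higher in 4 of 4 pairs but the groups overlapped widely, and the log2 fold change was 0.27 (standard error 0.10, 95% interval 0.04 to 0.50, adjusted p = 0.331 from edgeR). *Cry1* (ENSMUSG00000020038), which encodes a cryptochrome repressor, had 12.5, 9.36, 11.4 and 9.66 CPM in WT and 12.1, 13.1, 15.5 and 11.3 CPM in CD1d-KO. The groups overlapped, and the interval of the fold change ran from 0.992 to 1.47.

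Neither REV-ERB gene was called between the genotypes. *Nr1d1* (ENSMUSG00000020889) had 73.0, 70.9, 53.8 and 50.9 CPM in WT and 51.7, 68.6, 55.9 and 49.1 CPM in CD1d-KO. Its groups overlapped, the interval of the fold change ran from 0.775 to 1.06, and the largest gap was in pair 1, at a log2 fold change of -0.50. *Nr1d2* (ENSMUSG00000021775) had 159, 157, 190 and 135 CPM in WT and 169, 169, 191 and 149 CPM in CD1d-KO, higher in 4 of 4 pairs by at most 0.14 on the log2 scale. Its interval was the narrowest of the 10, with a fold change between 0.956 and 1.18.

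*Dbp* (ENSMUSG00000059824) had 17.6, 14.7, 13.3 and 16.3 CPM in WT and 25.9, 25.1, 12.9 and 17.6 CPM in CD1d-KO. The CD1d-KO libraries of numbers 1 and 2 lay above every WT library and that of number 3 lay below them all, so the groups overlapped. The log2 fold change was 0.36 (standard error 0.14, 95% interval 0.03 to 0.69, adjusted p = 0.358 from edgeR), and 0.29 without the library labelled CD1d-KO replicate 1. *Tef* (ENSMUSG00000022389) had 115, 93.5, 77.1 and 105 CPM in WT and 122, 121, 79.3 and 101 CPM in CD1d-KO, with overlapping groups and a fold change between 0.942 and 1.23. *Sphk2*, on the strand opposite to *Dbp*, shares 737 bases with it and had 95.4 to 142 CPM, and *Thra* shares 1075 bases with *Nr1d1* in the same way (17.6 to 22.8 CPM), so reads in these overlaps are uncertain. The annotation of *Camta1*, on the same strand as *Per3*, spans all 41014 bases of *Per3*, and *Camta1* had 5.31 to 8.22 CPM, so the division of reads between them is uncertain too.

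**Figure D2:**
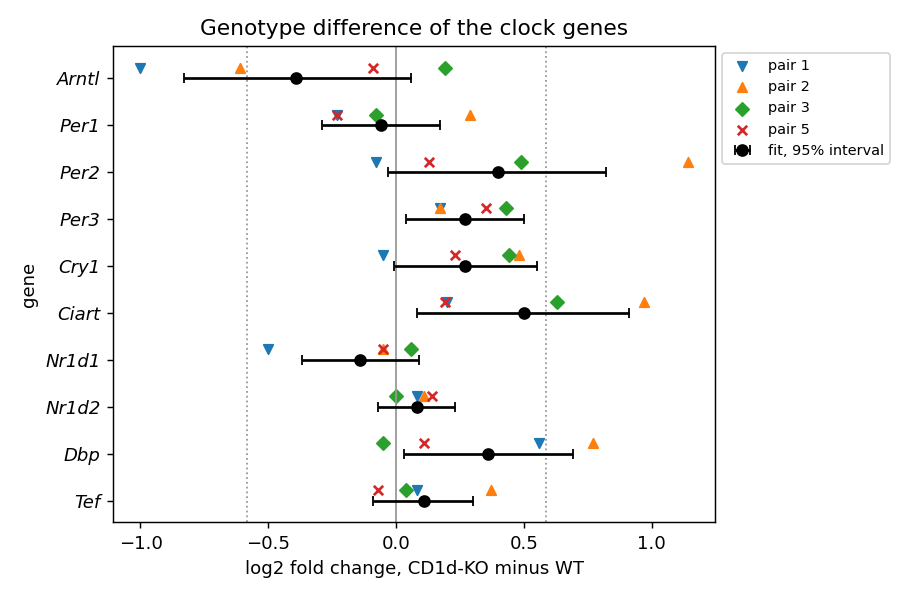
Log2 fold change of CD1d-KO minus WT (horizontal axis) for each clock gene, with the edgeR estimate and its 95% interval in black and the 4 pairs as coloured symbols above it. Dotted lines mark a fold of 1.5, which the intervals of *Arntl*, *Per2*, *Ciart* and *Dbp* reach, and the estimates run from -0.39 for *Arntl* to 0.50 for *Ciart*.

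Without the library labelled CD1d-KO replicate 1, 0 of the 10 were called as well. The log2 fold change then was 0.57 for *Per2*, 0.39 for *Cry1*, 0.60 for *Ciart*, 0.31 for *Per3*, -0.01 for *Nr1d1* and -0.01 for *Per1*, while *Nr1d2* and *Tef* stayed at 0.08 and 0.11.

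The intervals describe these 4 pairs as labelled, gene by gene, with no adjustment for the number of genes. They include the library labelled CD1d-KO replicate 1, whose *Cd1d1* level was close to that of its WT partner. Without that library the estimates grew in size for *Per2*, *Cry1*, *Ciart* and *Per3*. They shrank for *Arntl*, *Nr1d1*, *Dbp* and *Per1*. No interval is given for that fit, so a limit on a missed difference cannot be set without that library. For *Per1*, *Per3*, *Cry1*, *Nr1d1*, *Nr1d2* and *Tef* the 95% interval lay inside a fold of 1.5 either way. For *Arntl* (0.562 to 1.04), *Per2* (0.980 to 1.77), *Ciart* (1.06 to 1.88) and *Dbp* (1.02 to 1.62) it reached past 1.5, so these libraries do not exclude a difference of that size.

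In the same fit, 513 of all 13040 genes (3.93%) were called between replicate numbers, and *Per3* was the 1 clock gene among them. The number over all genes was 232 without the library labelled CD1d-KO replicate 1, 47 without replicate 1, and 0 both without replicate 3 and with limma on log2(TPM + 1). At an adjusted p under 0.05 with the same fold, 2 of the 10 passed (*Per3* and *Tef*), against 13.5% of all genes. The median log2 range between the highest and the lowest replicate number was 0.54 for the clock genes and 0.48 for all genes, so the medians lay close together.

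*Per3* was highest in replicate 1 (mean of the pair 18.3 CPM), then in replicate 5 (14.3 CPM), replicate 2 (11.1 CPM) and replicate 3 (6.66 CPM), in the same order in both genotypes. Between replicates 1 and 3 the difference was 2.76-fold (log2 range 1.46, adjusted p = 0.00472 from the edgeR test of replicate number). Of all tested genes, 1.47% had a smaller p in this test. The call did not hold in every fit, since the adjusted p was 0.0315 without replicate 1, 0.0764 without replicate 3 and 0.0145 without the library labelled CD1d-KO replicate 1. The log2 range was 0.73 without replicate 3 and up to 1.55 in the other fits.

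Of the 6 contrasts between single replicate numbers, only that of replicate 3 against replicate 1 called a clock gene, *Per3*, with a log2 difference of -1.46 (standard error 0.14, adjusted p = 0.00114 from edgeR). That contrast called 7.36% of all genes. The others called 1.31% (2 against 1), 0% (5 against 1), 0.683% (3 against 2), 0.138% (5 against 2) and 0.376% (5 against 3). *Per3* was lower in replicate 3 than in replicate 5 by a log2 difference of 1.10 (adjusted p = 0.0152 from edgeR), which missed the threshold.

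*Tef* ran from a pair mean of 119 CPM in replicate 1 to 78.2 CPM in replicate 3 (1.52-fold, adjusted p = 0.0457 from edgeR). *Dbp* was also highest in replicate 1 (21.8 CPM) and lowest in replicate 3 (13.1 CPM), with an adjusted p of 0.140 from edgeR. *Arntl* and *Nr1d2* were highest in replicate 3, at pair means of 20.6 and 190 CPM, with adjusted p-values of 0.202 and 0.0675 from edgeR. *Cry1* was highest there too (adjusted p = 0.423 from edgeR). *Nr1d1* took another order, highest in replicate 2 and lowest in replicate 5, with an adjusted p of 0.137 from edgeR. *Per2* was highest in replicate 1 and lowest in replicate 2 (adjusted p = 0.236 from edgeR). *Per1* and *Ciart* had the smallest log2 ranges of the 10, at 0.08 and 0.17.

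**Figure D3:**
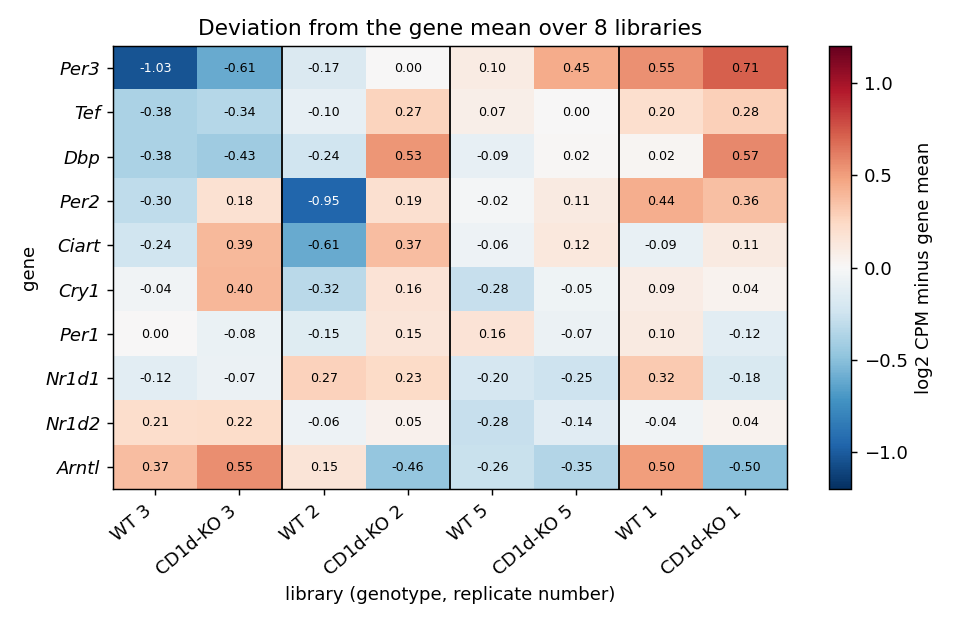
Log2 CPM of each clock gene minus its mean over the 8 libraries (colour and printed value), with libraries ordered by replicate number 3, 2, 5, 1 and black lines between the pairs. Both replicate 3 libraries lie below the mean for *Per3* (-1.03 and -0.61), *Tef* (-0.38 and -0.34) and *Dbp* (-0.38 and -0.43) and above it for *Arntl* (0.37 and 0.55).

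*Arntl* was set against the 9 other clock genes over the 8 libraries, because genes of opposite phase should move in opposite directions. Pearson's r on log2 CPM was -0.78 for *Dbp* (p = 0.0226, exact permutation test, two-sided), with a Spearman's rho of -0.76 (p = 0.0368, exact permutation test). For *Tef* r was -0.66 (p = 0.0854, exact permutation test) and rho -0.69, and for *Per3* r was -0.55 (p = 0.162, exact permutation test) and rho -0.52. After Benjamini-Hochberg adjustment over the 9 relations none passed 0.05, and the adjusted p of *Dbp* was 0.203. *Nr1d1*, which peaks near *Dbp* in mouse tissues, gave an r of 0.34 with *Arntl* (p = 0.368, exact permutation test). The other REV-ERB gene, *Nr1d2*, gave 0.47, the highest of the 9 (p = 0.238, exact permutation test). *Per1* gave -0.09 (p = 0.828, exact permutation test).

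The relation depended on which libraries entered. Without CD1d-KO replicate 3 and WT replicate 1, the 2 libraries farthest from the median of *Arntl*, r was -0.87 for *Dbp*, -0.94 for *Tef* and -0.88 for *Per3*, and *Tef* and *Per3* passed (both with an adjusted p of 0.0375, exact permutation test). Without replicate 3 of both genotypes r was -0.62 for *Dbp*, -0.30 for *Tef* and -0.06 for *Per3*. With the genotype means removed it was -0.72, -0.65 and -0.50 for these genes, 0.70 for *Nr1d2* and 0.82 for *Cry1*, the largest, and none passed (adjusted p of *Cry1* 0.104, exact permutation test). On log2(TPM + 1) r was -0.43 for *Dbp*, -0.32 for *Tef* and -0.29 for *Per3*, and no value can be given within a replicate number, which holds 2 libraries. Libraries of one number are not independent if they were collected together, so the exact p-values may be too small.

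**Figure D4:**
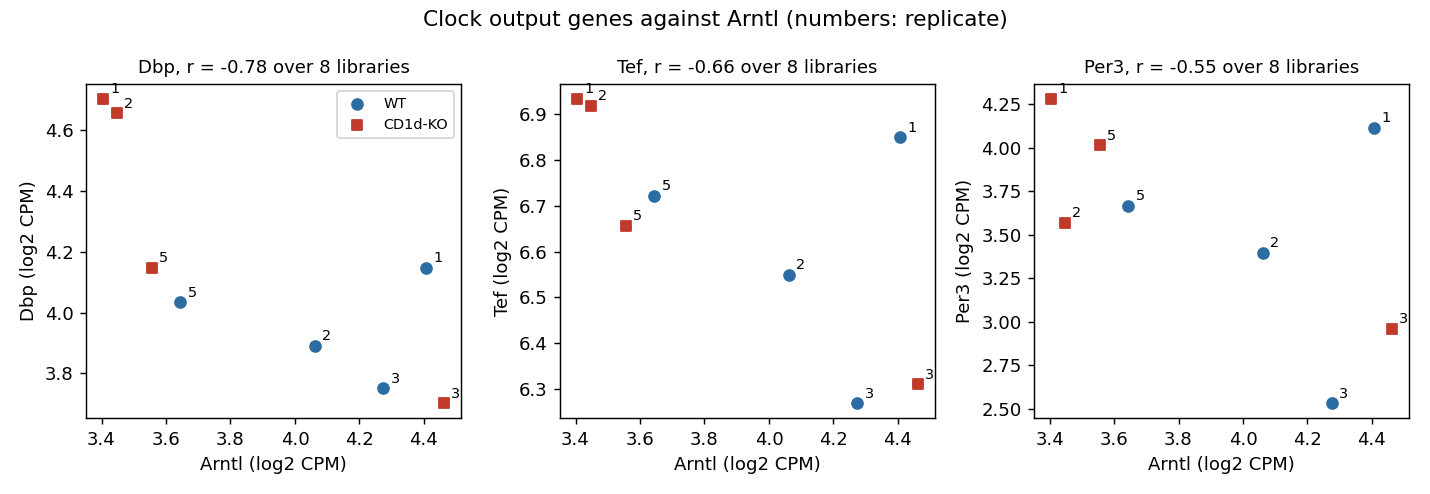
Log2 CPM of *Dbp*, *Tef* and *Per3* (vertical axes) against log2 CPM of *Arntl* (horizontal axes) in the 8 libraries, with WT as blue circles, CD1d-KO as red squares and the replicate number beside each point. Replicate 3 of both genotypes sits at the lower right of each panel, and WT replicate 1 stands apart with high *Arntl* and high *Per3* and *Tef*.

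The log2 ratio of *Dbp* to *Arntl* in CPM gives the contrast in a single value per library. In WT replicates 1, 2, 3 and 5 it was -0.26, -0.17, -0.52 and 0.39, and in CD1d-KO it was 1.30, 1.21, -0.76 and 0.59. The libraries of pairs 3 and 5 lay near each other, while in pairs 1 and 2 the CD1d-KO library lay well above its WT partner. The log2 ratio of *Tef* to *Nr1d2* was lowest in both replicate 3 libraries (-1.30 in WT and -1.26 in CD1d-KO) and lay between -0.75 and -0.36 in the other 6. This had to be so, since *Tef* was lowest and *Nr1d2* highest in replicate 3 of both genotypes, and it is not a separate result.

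Among the clock genes themselves, *Dbp* and *Tef* moved together most closely (r = 0.90 over the 8 libraries), followed by *Per3* with *Tef* (0.87). *Ciart* moved with *Cry1* (0.80) and with *Per2* (0.79). Genotype means were not removed for these values, and the fitted estimates of *Ciart*, *Cry1* and *Per2* were all higher in CD1d-KO. Of the 9164 tested genes with a mean of at least 5 CPM outside the 10, those most like *Dbp* were *Dmwd* (r = 0.96), *Selenoo*, *Tfcp2*, *Cep152* and *Cep295*, and those most opposite were *Rab35* (-0.93), *Prr5l*, *Ube2e1*, *E130307A14Rik* and *Sugt1*. Most like *Arntl* were *Cnot6* (0.95), *Cyfip1*, *U2surp*, *Srek1ip1* and *Pold3*, and most opposite were *Gm20634* (-0.93), *Cdk5rap2*, *Kdelc2*, *Vars* and *Ddt*. These are descriptions over 8 libraries that share pairs and were picked as extremes of many genes.

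Of 17 other clock regulators, 11 were tested, and 0 were called for genotype (2 at an unadjusted p under 0.05) or for replicate number by edgeR. Over all genes 12.4% had an unadjusted p under 0.05 for genotype. Their median log2 fold change was -0.03 and their median range 0.43. *Rora*, an activator of *Arntl* through ROR elements, had 25.9, 18.2, 35.8 and 26.3 CPM in WT and 33.9, 24.4, 51.5 and 25.7 CPM in CD1d-KO, highest in replicate 3 of both (adjusted p = 0.0139 from the edgeR test of replicate number). *Nfil3*, a D-box repressor, had 114 and 91.6 CPM in WT and 132 and 120 CPM in CD1d-KO replicates 2 and 3, above replicates 1 and 5 of the same genotype (64.0 to 79.5 CPM), with an adjusted p of 0.0311 from the same test. *Clock* stayed between 65.0 and 76.8 CPM, while *Npas2* was above 0 in only 1 of the 8 libraries.

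Of 10 further genes that cycle in many tissues, 0 were called for genotype and 2 for replicate number, and 7 passed an adjusted p of 0.05 in the test of replicate number. Over all genes 3.93% were called for replicate number, and 13.5% at an adjusted p under 0.05 with the fold threshold. *Cdkn1a*, a cell cycle inhibitor, had 207, 254, 414 and 261 CPM in WT and 176, 257, 362 and 216 CPM in CD1d-KO, highest in replicate 3 of both (adjusted p = 0.00529 from edgeR). *Lonrf3* was also highest in replicate 3, at 41.4 and 36.7 CPM (adjusted p = 0.00540 from edgeR). *Nampt*, an enzyme of NAD synthesis, reached 843 and 765 CPM there (adjusted p = 0.0131 from edgeR). *Litaf* was highest there as well, at 325 and 335 CPM (adjusted p = 0.0171 from edgeR). *Usp2* was instead highest in replicate 1 of both, at 6.82 and 4.74 CPM (adjusted p = 0.0445 from edgeR). The remaining genes that passed were highest in replicate 2 of both, so the list did not move as one. The median range of this list was 0.83 on the log2 scale.

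Some genes of stress and hormone response lists were called for replicate number. Of 10 glucocorticoid-induced genes 3 were called for replicate number (*Sgk1*, *Dusp1* and *Sesn1*), against 3.93% of all genes, and 0 for genotype. At an unadjusted p under 0.05 for genotype there were 7, against 12.4% of all genes, but they differed in direction. Over the list the log2 fold change was above 0 in 4 of the 10 genes, with a median of -0.23. *Sgk1*, a kinase, was at 137 CPM in WT replicate 3 and 181 CPM in CD1d-KO replicate 3 and at 68.2 CPM or less elsewhere (adjusted p = 0.00161 from edgeR). *Sesn1* fell in the order of *Per3*, from 30.7 CPM in WT replicate 1 to 8.68 CPM in WT replicate 3 (adjusted p = 0.00506 from edgeR). Of 13 tested immediate early genes 5 were called (*Egr1*, *Ier3*, *Klf2*, *Klf4* and *Zfp36*). Of 9 heat and cold response genes 0 were called, and 2 (*Hspa1b* and *Hsph1*) had an adjusted p under 0.05. Over all genes 13.5% did so with the fold threshold.

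Of the markers of other cells, 1 B cell marker and 2 of small peritoneal macrophages and dendritic cells were called for replicate number, and none of the lists for eosinophils, neutrophils, mesothelial, mast or T and NK cells held a call. The 7 B cell markers summed to 184, 74.8, 145 and 208 CPM in WT replicates 1, 2, 3 and 5 and to 248, 41.6, 142 and 358 CPM in CD1d-KO, lowest in replicate 2 and highest in replicate 5 of both. Of these, *Ebf1* was called (background 3.93%) and 6 passed an adjusted p of 0.05 (background 13.5% with the fold threshold). Of 4 tested markers of small peritoneal macrophages and dendritic cells 2 (*Irf4* and *Cd209a*) were called, with list sums of 55.9 to 157 CPM. Sums were 3.17 to 6.95 CPM for T and NK cells with *Ncr1* at 0, 2.65 to 11.9 CPM for mast cells, 2.20 to 5.34 CPM for eosinophils, and at most 0.355 CPM for mesothelial cells. Neutrophil markers summed to 166 to 400 CPM, nearly all of it *Csf3r*, with *Ly6g* at 0. The 6 markers of large peritoneal macrophages summed to 6532 to 8116 CPM, with 0 called in either test. In bulk RNA fewer cells of a type and less RNA per cell cannot be told apart, and the part of these cells in the levels of the clock genes was not tested.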

How the data were processed

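Libraries were made with a polyA mRNA kit and 1 library per mouse. The authors trimmed reads with cutadapt, aligned them to GRCm38 with STAR 2.5.2a and estimated gene levels with RSEM 1.3.0, per the labels. The deposited files hold RSEM expected counts, which are not normalized, and TPM, which the authors' RSEM run scaled by gene length and library total. The p-values treat each library as 1 mouse. Gene symbols and positions came from GENCODE M21, which held 99.26% of the gene IDs.

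Expected counts were rounded, filtered with filterByExpr (minimum count 10), scaled by TMM and fitted with the legacy quasi-likelihood method of edgeR 4.0.16 (R 4.3.3) with replicate number and genotype, the covariates of the study's methods. Genes were called at a Benjamini-Hochberg adjusted p under 0.01 and a fold above 1.5, over all 13040 tested genes. CPM were TMM-scaled, and log2 CPM used a prior count of 2. Correlations used exact permutation over all pairings (SciPy 1.17.1). Alternatives used DESeq2 1.42.0, limma 3.58.1 on log2(TPM + 1), other scalings and filters, and fits without each replicate number. The fit was tested on simulated data.

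Replicate numbers were taken to pair the libraries, since same-numbered WT and CD1d-KO libraries deviated together from their group means, with correlations over genes of 0.487, 0.387, 0.505 and 0.207 for numbers 1, 2, 3 and 5. Against differently numbered CD1d-KO libraries the highest values for these WT libraries were -0.0148, 0.0254, 0.0586 and 0.220, so for number 5 the own partner was not the closest. Removing the group means lowers these values where the own value is above 0, so part of the gap is built in. The labels do not say what a number shares. All 10 genes are named, and of each further list at most 5 genes, those with the smallest p in the test concerned or a marker at 0. *Clock*, *Npas2* and the genes overlapping a member were named outside this rule, after their values were seen. Genes like *Dbp* and *Arntl* are the 5 highest and lowest by r. The members and lists were chosen with earlier results of these data known. Counting errors cover counting alone.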

Additional observations from a re-analysis of the deposited data

Results flagged for a closer look

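*Arntl* in CD1d-KO replicate 3, at 21.9 CPM, stood apart from the other 3 CD1d-KO libraries (10.5, 10.8 and 11.6 CPM). The gap to its nearest neighbour was 0.898 of the range of the group, above the 95% critical value of Dixon's test for 4 samples. Of 20 groups of 4 examined (10 genes in 2 genotypes) it was the only 1 set apart, and chance sets apart about 1 group in 20. WT replicate 3, its partner, was at 19.2 CPM.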

How the results depend on the processing

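The count of clock genes called for genotype was 0 in all 16 alternatives, and no clock gene changed the direction of its genotype difference in any of them. Without the replicate block it was 0 as well, and the smallest adjusted p of the 10 was then 0.997. The count of clock genes called for replicate number, 1 in the reported fit, was 2 at an adjusted p under 0.05, 2 with no filter on low counts, 0 with limma on log2(TPM + 1) and 0 with no genotype term, and ran from 0 to 1 when each replicate number was left out. *Per3* lost its call in 5 of the 16 alternatives. Among the other clock regulators the count called for replicate number, 0 in the reported fit, was 2 at an adjusted p under 0.05, 2 with no filter, 2 with DESeq2, and ran from 0 to 1 when each replicate number was left out. The count of clock genes related to *Arntl*, 0 as reported, was 2 without the 2 libraries farthest from the median of *Arntl*. Over all genes the number called ran from 3 to 236 for genotype, with 103 by DESeq2 and 48 at an adjusted p under 0.05, and from 0 (without replicate 3, with limma and with no genotype term) to 2105 (no filter) for replicate number, with 1514 by DESeq2. The cause of these differences was not tested. The lowest counts a library were those of *Ciart* (56 to 132) and *Per3* (73 to 395).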
